A study of Mus musculus with 6 samples.

Results

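The immediate early and Nr4a activation genes were followed in bulk RNA of mouse CD8T cells cocultured with macrophages. Per the study's methods, the CD8T cells were collected after coculture. The macrophages were treated or not with DB2313, which inhibits the factor Spi1. The members were the 10 rows of the deposited gene count table named Nr4a1, Nr4a2, Nr4a3, Egr1, Egr2, Egr3, Fos, Fosb, Jun and Junb, out of 54532 genes in the table. Per the study's methods, primary CD8T cells were isolated from mouse spleen, stimulated with anti-CD3/28 beads and cocultured for 24 hr with thioglycolate-induced peritoneal macrophages, themselves pretreated for 12 hr with IFN-γ at 10 ng/mL. The control group received macrophages without DB2313 (0 nM), and the DB2313 group received macrophages for which the methods give 14 nM DB2313. Bead stimulation and IFN-γ were thus shared by both groups, and CD8T cells without coculture were not analysed here. GEO's labels describe primary T cells incubated with DC cells, where the methods name macrophages. Each group held 3 samples, and neither the labels nor the methods say whether these came from separate cultures or mice, so the p-values measure the spread between these samples, which may be technical.

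Immediate early genes are transcribed within minutes of a stimulus from promoters that already carry their activators, without new protein synthesis. In T cells, signals from the T cell receptor reach them through calcium and calcineurin, which act on NFAT and MEF2, and through the Erk kinases, which act on Srf and its ternary complex factors. Their products are transcription factors themselves. The Nr4a proteins are orphan nuclear receptors, the Egr proteins are zinc finger factors, and Fos and Jun proteins pair into AP-1. The same genes are also induced in activated macrophages, and bulk RNA does not tell which cell a transcript came from.

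Libraries held 16611975 to 18596217 counts on genes, and 14883 genes passed the filter on low counts, among them all 10 members. Gene positions below are those of the deposited table, which for all 10 members are the GRCm38 positions of the GENCODE annotation. Levels are given as CPM, gene counts relative to library size after TMM scaling, which takes the bulk of genes as unchanged, and as CPM per kilobase of gene length (RPKM) where genes are compared with each other. A gene was called changed at a Benjamini-Hochberg adjusted p below 0.05 from edgeR's quasi-likelihood test across all 14883 genes. The labelled cell type was checked first. All 20 T cell markers were counted and were higher in the DB2313 group (median log2 fold change 0.59). They took 0.370 to 0.376% of the control counts and 0.595 to 0.601% of the DB2313 counts. Macrophage markers were counted too. Of 25, 22 were tested, 18 were lower and 3 higher, with a median of -0.86, and their share was 1.28 to 1.31% in the control libraries and 0.538 to 0.550% in the DB2313 libraries. Vsig4 had no count in any library, and Timd4, a marker of resident macrophages, had at most 3 counts in a library. Of 10 neutrophil markers 7 were lower and 3 higher, and of 8 B cell markers 6 were higher. Of 9 tested dendritic cell markers 7 were lower and 1 higher, with Siglech at 0 in each library. The dendritic cell markers took 0.370 to 0.375% of the control counts and 0.269 to 0.272% of the DB2313 counts. Markers of several cell types were thus counted in samples that the study describes as CD8T cells, in shares that moved with the groups. Fewer cells of a type and less RNA per cell cannot be told apart in such bulk samples, and the part of these shares in the results on the members was not tested.

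Of the 10 members, Nr4a3, Egr2, Fos and Egr3 were lower in the DB2313 group and Nr4a2 was higher under TMM scaling, though not with the libraries scaled to the T cell markers, while Nr4a1, Egr1, Fosb, Jun and Junb did not pass the threshold. Called genes were common in this comparison, at 45.4% of all tested genes (24.6% of all tested genes lower and 20.8% higher). In number, 4 lower and 1 higher of 10 members thus stood near the background. The members differed from each other in size. Among them, only Nr4a3 passed an absolute log2 fold change of 1 as well, which 5.30% of all genes did downward and 1.37% upward. The median log2 fold change was -0.16 over the 10 members and 0.0195 over all tested genes. The libraries of both groups did not overlap in CPM in 7 members, 5 lower and 2 higher, against 53.1% of all tested genes (27.5% lower and 25.6% higher). With 3 against 3 libraries, an exact permutation test cannot give a p below 0.1, which is the two-sided value for each of these 7 genes.

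**Figure D1:**
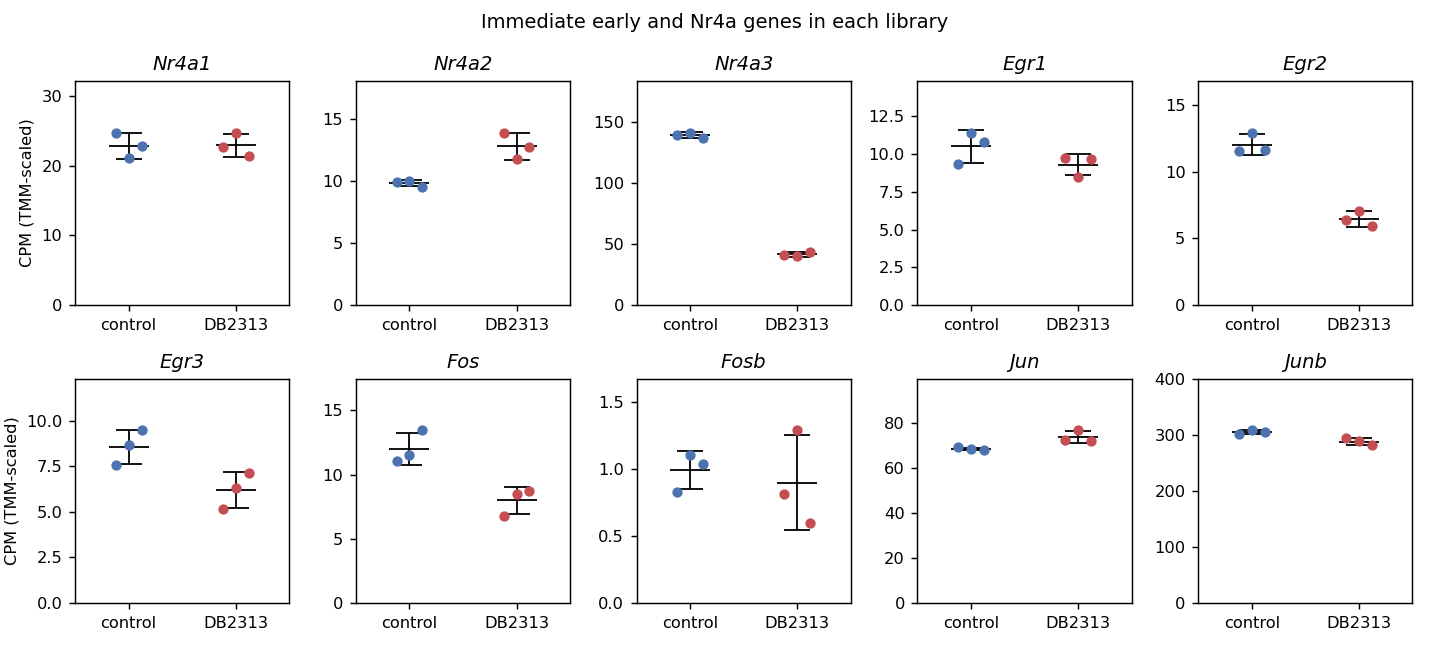
TMM-scaled CPM of each of the 10 genes in the 3 control libraries (blue) and the 3 DB2313 libraries (red), with linear axes from 0. Bars are the mean and its SD over 3 libraries. Nr4a3 is the gene whose groups lie farthest apart, at 139.6 and 41.7 CPM on average, and the libraries of Nr4a1, Egr1 and Fosb overlap.

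The 3 Nr4a receptors, Nr4a1 (Nur77), Nr4a2 (Nurr1) and Nr4a3 (Nor1), bind the same DNA elements without a known ligand and act partly in each other's place in T cells, where they restrain effector programmes under sustained receptor signals. Their start regions share a feature as well. Within 300 bases around the RefSeq start, each of the 3 genes holds 4 copies of TGACG or its reverse complement CGTCA, the core of the element bound by Creb. At least 1 copy in a window occurs in 23.0% and at least 4 copies in 0.255% of the 27025 genes with such a window. The core was not limited to the Nr4a genes, since 7 of the 8 members with a window held it. Egr2, over 5 windows, and Fos had 2 copies, Fosb and Junb had 1, and Jun had 0. The full Creb element was also sought. It was found in 0 of these 8 members, against 2.03% of the 27025 genes. The stretches before the RefSeq start, cut where an annotated exon begins, are shown because the 3 genes differ in response while sharing the core. Capitals mark TGACG or CGTCA, and the stretches run 5′ to 3′ on the gene's strand from RefSeq (GRCm38.p6). They lie at chr15:101266596-101266845, plus strand, within an intron of a longer Nr4a1 transcript, at chr2:57124004-57124253, minus strand, and at chr4:48045055-48045152, plus strand, where the 98 bases shown hold 3 of the 4 copies.
Nr4a1: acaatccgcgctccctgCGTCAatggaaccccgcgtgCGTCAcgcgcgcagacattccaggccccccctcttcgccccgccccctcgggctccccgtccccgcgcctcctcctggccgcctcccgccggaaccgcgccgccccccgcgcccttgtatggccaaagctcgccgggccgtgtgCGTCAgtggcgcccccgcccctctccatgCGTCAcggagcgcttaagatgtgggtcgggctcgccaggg
Nr4a2: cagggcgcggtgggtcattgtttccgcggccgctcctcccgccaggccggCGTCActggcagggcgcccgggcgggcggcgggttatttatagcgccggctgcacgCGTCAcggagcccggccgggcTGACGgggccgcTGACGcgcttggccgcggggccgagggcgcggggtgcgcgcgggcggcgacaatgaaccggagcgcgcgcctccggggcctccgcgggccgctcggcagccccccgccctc
Nr4a3: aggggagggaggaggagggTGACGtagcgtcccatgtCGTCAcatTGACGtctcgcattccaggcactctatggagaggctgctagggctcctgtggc
A match of letters is a description and not a measured binding site.

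Nr4a3 (ENSMUSG00000028341, chromosome 4 from 48045153 to 48086447, plus strand) was counted 2527, 2432 and 2248 times in control replicates 1 to 3 and 764, 683 and 803 times in DB2313 replicates 1 to 3. Every DB2313 library thus lay far below every control library, and within each group the libraries were close together. The level went from 139.6 ± 2.12 to 41.7 ± 1.83 CPM (SD, n = 3 each), a 3.35-fold lower level. On the log2 scale the level fell by 1.74 (standard error 0.0465, edgeR adjusted p = 3.89e-19), which placed it at position 259 of the 14883 tested genes counted from the most lowered, or within the lowest 1.74%. It stayed between -1.78 and -1.71 when each library was left out in turn.

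Nr4a1 (ENSMUSG00000023034, chromosome 15 from 101254269 to 101274795, plus strand) had control counts of 446, 362 and 373 and DB2313 counts of 418, 421 and 394. The groups overlapped, and the means were 22.9 ± 1.83 and 22.9 ± 1.65 CPM (SD, n = 3 each). Its estimated log2 fold change was 0.0012, with a 95% confidence interval from -0.18 to 0.18 (adjusted p = 0.993 from edgeR), so a change as large as that of Nr4a3 lay outside this interval. With the libraries scaled to the T cell markers, Nr4a1 was at -0.58 (adjusted p = 1.43e-06 from edgeR).

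Nr4a2 (ENSMUSG00000026826, chromosome 2 from 57106830 to 57124003, minus strand) received 179, 171 and 156 counts in control and 256, 200 and 234 counts in DB2313 libraries. All 3 DB2313 libraries lay above the control libraries. The level went from 9.80 ± 0.234 to 12.8 ± 1.07 CPM (SD, n = 3 each), a log2 fold change of 0.38 (standard error 0.113, adjusted p = 0.00769 from edgeR), although it was -0.20 when the libraries were scaled to the 20 T cell markers.

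Because the receptors were counted within the same libraries, their makeup does not depend on any scaling. Per kilobase, Nr4a3 made up 71.1, 73.7 and 72.2% of the Nr4a counts in the control libraries and 41.2, 40.3 and 44.1% in the DB2313 libraries. Nr4a1 went from 20.2 ± 1.38 to 39.2 ± 2.79% and Nr4a2 from 7.49 ± 0.134 to 18.9 ± 1.49% (SD, n = 3 each). None of the 3 shares overlapped between the groups (two-sided exact permutation test, p = 0.1 each, the smallest possible). In the control group Nr4a3 was the leading receptor in each library, and in the DB2313 group its level per length, 6.69 to 7.29 RPKM, overlapped that of Nr4a1 at 6.10 to 7.03 RPKM.

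**Figure D2:**
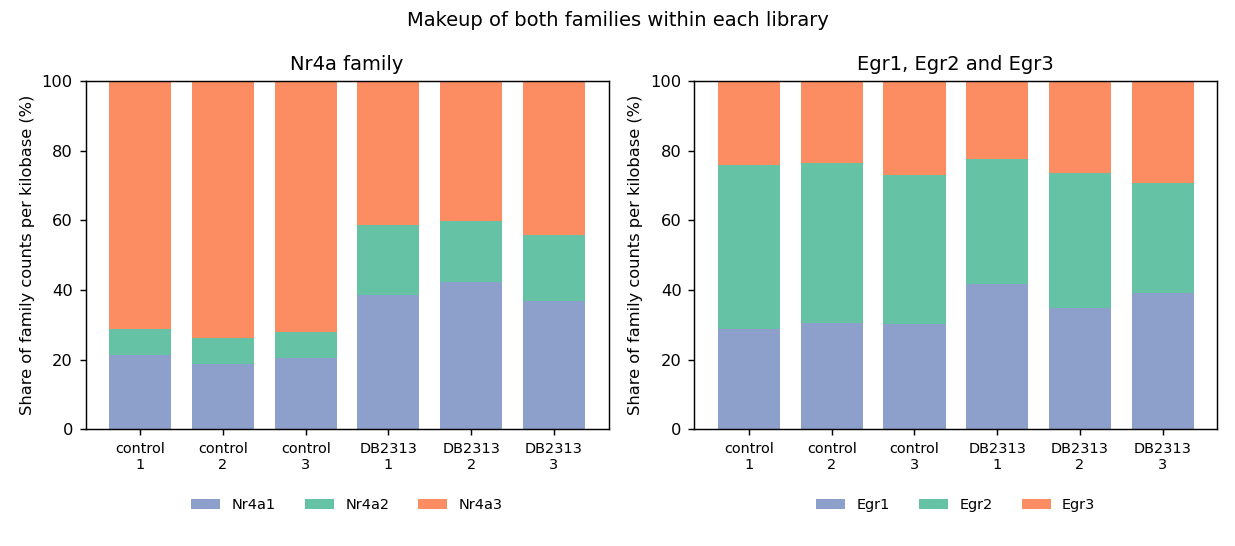
Stacked bars give the share (%) of each gene in its family's counts per kilobase, in each of the 6 libraries, for the Nr4a receptors (left) and for Egr1, Egr2 and Egr3 (right). Nr4a3 takes over 70% of the Nr4a bar in the control libraries and under 45% in the DB2313 libraries, while in the Egr family the share of Egr2 is smaller and that of Egr1 larger in the DB2313 libraries.

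Among the Egr genes, Egr2 and Egr3 were lower and Egr1 was not called. Egr1 is the family's most general immediate early gene, whereas Egr2 and Egr3 follow NFAT signals in T cells and are known for their roles in T cell tolerance. Egr2 (ENSMUSG00000037868, chromosome 10 from 67535475 to 67542188, plus strand) had 208, 222 and 190 counts under control conditions and 118, 121 and 109 with DB2313. The groups were well apart, at 12.02 ± 0.780 and 6.47 ± 0.588 CPM (SD, n = 3 each). Egr2 fell by 0.89 on the log2 scale (standard error 0.126, edgeR adjusted p = 2.91e-06), and it stayed between -0.96 and -0.83 with each library left out.

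Among the 8 members with a RefSeq window, a CArG box, the element bound by Srf, was found in Egr2. Egr2 was searched over 5 windows and each of the other 7 over 1, so the members cannot be compared evenly. Over all genes, each with as many windows as the table gives it, 1.81% held the box in at least 1 window. The 250 bases before an Egr2 exon of the GENCODE annotation are shown for this element, from chr10:67537619-67537868, plus strand. This stretch lies inside the annotated gene, which starts at 67535475. Capitals mark the CArG box and TGACG or CGTCA.
Egr2: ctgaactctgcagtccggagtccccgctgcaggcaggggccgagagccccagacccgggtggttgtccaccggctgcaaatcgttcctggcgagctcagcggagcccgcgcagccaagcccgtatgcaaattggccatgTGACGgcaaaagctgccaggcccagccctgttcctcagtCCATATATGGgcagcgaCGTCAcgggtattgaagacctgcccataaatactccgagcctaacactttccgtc
The entries used had no window for Egr1 and Egr3.

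Egr3 (ENSMUSG00000033730, chromosome 14 from 70077203 to 70082614, plus strand) had 137, 149 and 155 counts in the control libraries and 95, 108 and 131 in the DB2313 libraries. Its groups came closer than those of Egr2 without overlapping, at 8.58 ± 0.941 and 6.20 ± 0.995 CPM (SD, n = 3 each). The log2 fold change of -0.47 (standard error 0.150) passed at an adjusted p of 0.0135 from edgeR, but not with DESeq2 (adjusted p = 0.0536), without control replicate 3 (-0.39, adjusted p = 0.0705 from edgeR) or without DB2313 replicate 1 (-0.35, adjusted p = 0.0780 from edgeR).

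Egr1 (ENSMUSG00000038418, chromosome 18 from 34859823 to 34864984, plus strand) had 168, 196 and 177 counts in the control libraries and 180, 145 and 178 in the DB2313 libraries. The groups overlapped, at 10.51 ± 1.08 and 9.31 ± 0.700 CPM (SD, n = 3 each). A log2 fold change of -0.17 came with a 95% confidence interval from -0.43 to 0.08 (adjusted p = 0.271 from edgeR).

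Within the Egr family, Egr2 went from 45.2 ± 2.21 to 35.4 ± 3.50% of the counts per kilobase and Egr1 from 29.9 ± 0.910 to 38.6 ± 3.36% (SD, n = 3 each), both without overlap between the groups (two-sided exact permutation test, p = 0.1 each). Egr3 overlapped, at 24.9 ± 1.81 and 26.1 ± 3.49% (p = 0.7, the same exact test). In the DB2313 group the levels of Egr1 and Egr2 per length overlapped, at 1.90 to 2.17 and 1.74 to 2.09 RPKM, whereas in the control group Egr2 at 3.39 to 3.80 RPKM lay above Egr1 at 2.08 to 2.54 RPKM. Egr4, the fourth gene of the family, had 0 counts in each control library, where a count of 0 allows up to 3 counts in a library, and 4, 4 and 0 in the DB2313 libraries, and was too low to be tested.

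Fos and Fosb encode AP-1 subunits that bind DNA only with a Jun partner. Fos (ENSMUSG00000021250, chromosome 12 from 85473890 to 85477273, plus strand) gave 199, 198 and 220 counts in control and 125, 145 and 160 counts in DB2313 libraries. Every DB2313 library was lower, at 7.99 ± 1.06 CPM on average against 11.996 ± 1.27 CPM (SD, n = 3 each). Fos fell by 0.59 on the log2 scale (standard error 0.130, edgeR adjusted p = 6.84e-04), and the log2 fold change ranged from -0.65 to -0.48 over the fits that each left out 1 library. The 250 bases before the gene lie at chr12:85473640-85473889, plus strand (GRCm38.p6, RefSeq). They are shown beside the Egr2 stretch, which lies inside its gene, because Fos fell as well. TGACG or CGTCA is in capitals, and this window held no CArG box. Only exact matches within the window were sought, so a box farther upstream or of looser form would be missed.
Fos: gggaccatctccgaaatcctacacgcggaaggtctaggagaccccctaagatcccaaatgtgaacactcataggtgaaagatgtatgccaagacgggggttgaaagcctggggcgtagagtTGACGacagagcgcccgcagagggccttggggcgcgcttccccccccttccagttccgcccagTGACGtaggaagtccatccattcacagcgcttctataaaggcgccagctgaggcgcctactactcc

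Fosb (ENSMUSG00000003545, chromosome 7 from 19302696 to 19310051, minus strand) was the least counted member, with 15, 19 and 17 counts in the control libraries and 15, 22 and 11 in the DB2313 libraries. At this depth no difference was detectable. The levels were 0.992 ± 0.143 and 0.900 ± 0.354 CPM (SD, n = 3 each), and the 95% confidence interval of the log2 fold change ran from -0.96 to 0.66 (adjusted p = 0.790 from edgeR).

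Jun and Junb, the partners of Fos, differed little between the groups under TMM scaling, but both were lower with the libraries scaled to the T cell markers. Jun (ENSMUSG00000052684, chromosome 4 from 95049034 to 95052222, minus strand) was at 69.2, 68.4 and 68.1 CPM in the control libraries and at 72.7, 76.7 and 72.2 CPM in the DB2313 libraries. The groups did not overlap, but the difference was small. The log2 fold change of 0.11 (standard error 0.0490) did not pass under TMM (adjusted p = 0.0804 from edgeR), passed under library size scaling at 0.20 and upper quartile scaling at 0.17, and was -0.48 when scaled to the T cell markers.

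Junb (ENSMUSG00000052837, chromosome 8 from 84974484 to 84978718, minus strand), whose product also curbs Jun-driven transcription, was by far the most abundant member, with 300.7, 307.8 and 304.9 CPM in the control libraries and 293.9, 288.3 and 281.4 CPM in the DB2313 libraries. The groups lay side by side without overlap. At a log2 fold change of -0.08 (standard error 0.0334) it missed the threshold (edgeR adjusted p = 0.0519), with 0.013 under library size scaling. It passed with at least 10 counts in every library (adjusted p = 0.0418 from edgeR) and without DB2313 replicate 1 (-0.10, adjusted p = 0.0408 from edgeR), and was at -0.67 with the libraries scaled to the T cell markers (adjusted p = 1.32e-14 from edgeR).

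Jun overlaps 689 bases of the antisense gene Junos, which had 35 to 68 counts in a library, and Junb overlaps 351 bases of Prdx2, a plus-strand neighbour that was called lower at -0.28. Without a stated strand setting, reads in these overlaps cannot be told apart. The other 8 members overlap no other gene of the table.

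In the balance of AP-1 subunits, Fos and Fosb together made up 3.07, 3.17 and 3.68% of the counts per kilobase of the 4 subunits in the control libraries and 1.96, 2.49 and 2.55% in the DB2313 libraries. All 3 DB2313 values were below the control values (two-sided exact permutation test, p = 0.1). Junb kept most of the pool, at 86.0 ± 0.225% of Jun plus Junb without and 84.4 ± 0.485% with DB2313 (SD, n = 3 each).

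The order of the members by level per length was the same at its ends in both groups. Junb led with 132.3 ± 1.55 RPKM without and 125.1 ± 2.72 RPKM with DB2313 (SD, n = 3 each), and Fosb came last. In the control group the libraries of neighbours in the order Junb, Nr4a3, Jun, Nr4a1, Fos, Egr2 and Nr4a2 did not overlap. Only Nr4a2 with Egr1 and Egr1 with Egr3 overlapped as neighbours there. In the DB2313 group Nr4a3 stood behind Jun, and the neighbours Nr4a3 with Nr4a1, Fos with Nr4a2, and Egr1 with Egr2 overlapped. Summed over the 10 members, the level was 589.4 ± 4.76 CPM without and 469.9 ± 5.68 CPM with DB2313 (SD, n = 3 each), and the 3 Nr4a receptors accounted for 172.3 ± 2.53 and 77.3 ± 0.804 CPM of it.

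The spread between libraries was set beside the spread that counting alone gives. In the control group the coefficient of variation was 1.52% for Nr4a3, where counting alone gives 2.04%, and 6.49% for Egr2 against 6.96%. Fos varied by 10.6% against 6.97%, and Egr3 in the DB2313 group by 16.1% against 9.48%. Fosb had the widest spread, 39.3% in the DB2313 group against 25.0% from counting.

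Since T cell markers were higher and most macrophage markers lower in the DB2313 libraries, the members were also set against the T cell markers. All 10 members lay below the markers' median log2 fold change of 0.59, and the difference from that median ran from -0.21 for Nr4a2 to -2.34 for Nr4a3. The median of all tested genes, 0.0195, lay below the T cell marker median as well, so this position does not set the members apart. With the libraries scaled to the summed counts of these markers, which moves the median log2 fold change of all genes by -0.584 to -0.565, 8 members were lower and none higher. The same held across all tested genes, with 77.3% lower and 1.20% higher, so this count is again close to the background. The members that did not pass were Nr4a2, at -0.20 (adjusted p = 0.109 from edgeR), and Fosb, at -0.73 (adjusted p = 0.0937 from edgeR). Nr4a3 was at -2.33 on this scale, Egr2 at -1.48, Fos at -1.17 and Egr3 at -1.05. Under TMM, the 22 tested macrophage markers ran from -2.16 to 1.44 with a median of -0.86, 18 lower and 3 higher. Nr4a3, at -1.74 under TMM, lay within that range, but so did all 10 members, so the range does not set Nr4a3 apart. From which cells the fall of Nr4a3 came was not tested. The scaling also decides how all calls divide, since lower genes made up 54.2% of the calls under TMM, 36.6% under library size scaling, 41.8% under upper quartile scaling and 98.5% with the T cell markers.

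**Figure D3:**
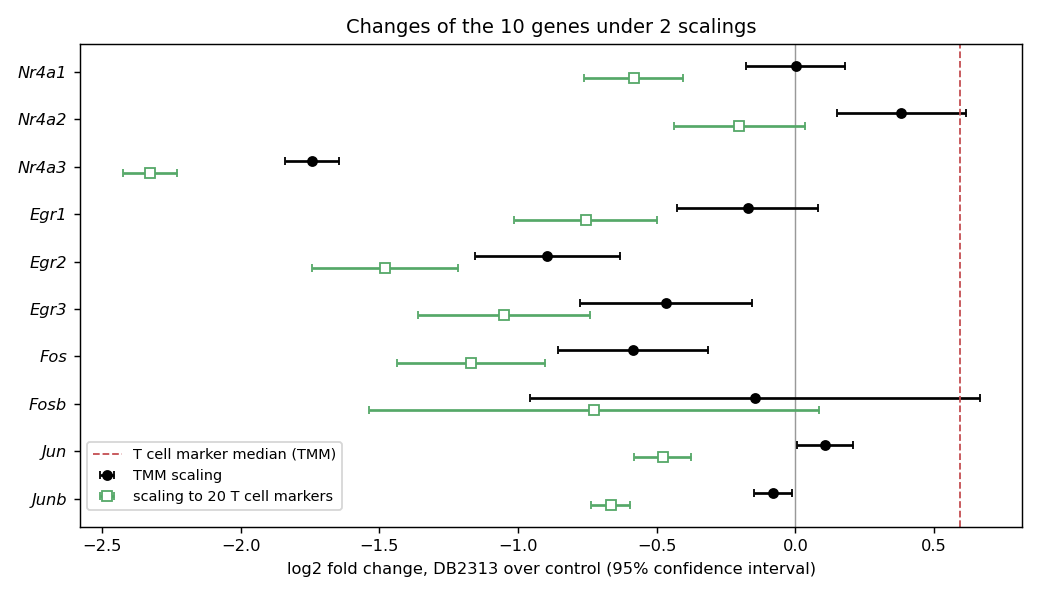
log2 fold change of each of the 10 genes, DB2313 over control, with its 95% confidence interval, under TMM scaling (black circles) and with libraries scaled to the 20 T cell markers (open green squares). The dashed line marks the markers' own median under TMM, 0.59. Each gene moves to the left under the second scaling, where Nr4a1, Nr4a2 and Jun change sign to -0.58, -0.20 and -0.48, and Nr4a3 is lowest under both, at -1.74 and -2.33.

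Partners, upstream factors, feedback regulators and targets of the members were read from 6 lists of 74 genes, of which 73 were tested. Of these, 18 were higher and 31 lower under TMM, and with the libraries scaled to the T cell markers none was higher and 65 were lower. The TMM counts stand beside 20.8% higher and 24.6% lower of all tested genes. Those with T cell marker scaling stand beside 1.20% higher and 77.3% lower. The values that follow are under TMM. Among 11 other AP-1 and bZIP partners, 2 were higher and 6 lower, with a median log2 fold change of -0.32. The most abundant per length was Jund, the constitutive Jun partner, which rose by 0.30 (standard error 0.0432), and the next was Atf3, a stress-induced repressor, at -0.35. Batf2, an interferon-induced bZIP factor, fell most in this list, from 40.9 ± 0.186 to 18.1 ± 1.03 CPM (SD, n = 3 each), and Fosl2, a Fos relative of later kinetics, was at -0.84. Of the Egr corepressors, Nab1 was at -0.24 and was called lower, and Nab2, itself an Egr target, was at 0.16 and was not called.

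Of 19 upstream factors and kinases, 3 were higher and 7 lower, and 9 were not called, with a median of 0.013. Srf, the factor that binds the CArG box, was at 0.040 (95% confidence interval from -0.07 to 0.15). Mapk3, which encodes Erk1, was the most abundant per length and fell most, from 191.0 ± 4.83 to 120.6 ± 2.32 CPM (SD, n = 3 each). The calcineurin subunit gene Ppp3r1 was at -0.13, and Mef2c rose most, by 0.41.

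Of 19 other primary response genes, 6 were higher, 7 lower and 6 not called, so the class moved in both directions. Klf2, a factor of quiescent and migrating T cells that is shut off by receptor signals, had the largest rise of the class, from 165.2 ± 5.65 to 252.4 ± 9.03 CPM (SD, n = 3 each). Gadd45b was at -0.39, and Ier3, a survival factor, fell most, at -0.92. Among 10 genes of MAP kinase feedback, 4 were higher and 3 lower. Dusp2, a nuclear phosphatase of activated T cells, rose by 0.60. This rise and that of Klf2, 0.61 on the log2 scale, lay slightly above the T cell marker median of 0.59. The part of the cell shares in these rises was not tested. Dusp6, the Erk phosphatase, was at -0.44, and Dusp5 was at -0.012 and was not called.

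Of 12 Egr and NFAT target genes of T cells, 7 were lower and 3 higher, with a median of -0.35. Rnf128, which encodes the anergy-linked ubiquitin ligase Grail, had 997, 973 and 934 control counts and 306, 293 and 286 DB2313 counts. The groups were far apart, with a log2 fold change of -1.78 (standard error 0.0696, adjusted p = 5.86e-16 from edgeR). Irf4, a target of receptor strength in T cells that is also used by myeloid cells, was at -1.17, Cd83 at -0.62 and Il2 at -0.80, all called lower. The bulk counts do not tell which cells these transcripts came from. Dgka and Dgkz, the diacylglycerol kinases that dampen receptor signals, were called higher at 0.47 and 0.37, and Tox, an NFAT-driven factor of chronically stimulated T cells, rose most, by 0.58. None of these 3 rises exceeded the median of the T cell markers, 0.59.

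**Figure D4:**
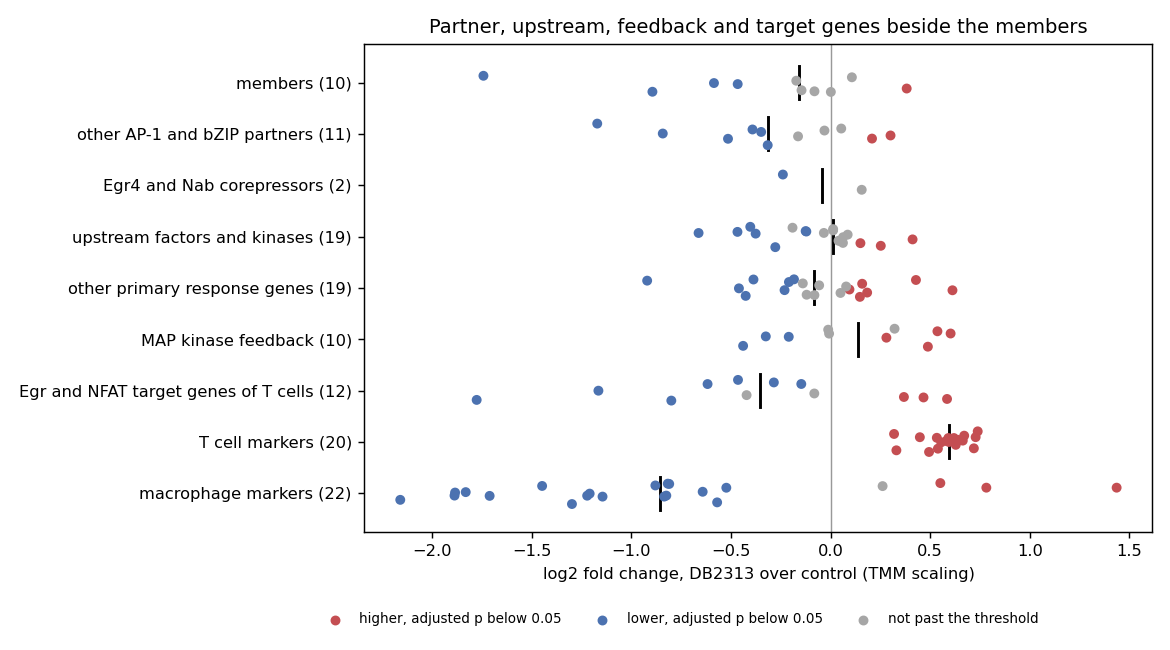
log2 fold change, DB2313 over control under TMM, of each tested gene in the 10 members, the 6 lists of related genes, the T cell markers and the macrophage markers, with the number of genes in parentheses. Red points were called higher, blue points lower and grey points neither, and black ticks are medians. The members spread from -1.74 to 0.38 around a median of -0.16, between the T cell markers, all above 0, and the macrophage markers, whose median is -0.86.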

How the data were processed

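RNA was sequenced from what the study describes as CD8T cells collected after coculture, in 2 groups of 3 samples. The authors deposited raw counts per gene, which are not normalized. The submitters' processing notes name CASAVA 1.8, HISAT2 2.0.5 and featureCounts 1.5.0-p3, while the study's methods name LifeScope. The build, annotation and strand setting are not given in the sources used here. Of 54409 genes shared with GENCODE mouse release 21, 98.3% had its GRCm38 coordinates.

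Counts were filtered (filterByExpr), scaled by TMM and tested with edgeR 4.0.16 (R 4.3.3, quasi-likelihood test, Benjamini-Hochberg adjustment at 0.05). Standard errors follow from the fitted change and its test. The procedure was tested on simulated data. Intervals are at 95%. With the smallest library, the limit of 3 counts that a count of 0 allows is 1.81e-05% of its counts, and such limits cover counting error only. Every library differed from the others of its group by more than sampling noise. Alternatives were library size, upper quartile and T cell marker scaling, another count filter, DESeq2 1.42.0, a fold threshold, the replicate number as a block, and each library left out.

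The members and lists were chosen with earlier results of these data known. Of each list, the 2 most abundant genes per length over all 6 libraries and the genes with the largest called rise and fall are named. Fosl2, Srf, Irf4, Il2, Dgkz, Egr4, Prdx2 and Junos, and the shares within families, were chosen after values were seen. A result on a withheld item is not reported here.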

Additional observations from a re-analysis of the deposited data

How the results depend on the processing

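Of 130 values of the members under 13 alternatives, 113 kept direction and side of the threshold, 3 became weaker, 6 stronger and 8 reversed. The log2 fold change of Nr4a1 was -0.58 with T cell marker scaling, -0.0016 with at least 10 counts in every library, -0.0543 without control replicate 2 and -0.0531 without DB2313 replicate 2 (-0.0543 to 0.0632 with each library left out). With T cell marker scaling Nr4a2 was at -0.20 and Jun at -0.48, Fosb was at 0.0798 without DB2313 replicate 3 (-0.484 to 0.0798 with each left out), and Junb was at 0.013 under library size scaling. Over all genes, 3096 higher and 3667 lower calls became 4931 higher under library size scaling, 178 higher and 11498 lower with the T cell markers, and 204 and 789 with the fold threshold. Members called higher numbered 2 under library size and upper quartile scaling and 0 with the T cell markers or the fold threshold, and those called lower 8 and 1 under the last 2 settings. Of the related genes, 0 were higher and 65 lower with the T cell markers, beside 1.20% higher and 77.3% lower of all tested genes. Members without overlap between the groups numbered 3 lower under library size scaling, and 0 higher and 9 lower with the T cell markers. A scaling moves the values of all genes by construction, and the cause of the reversals without 1 library was not tested. Without each library in turn, 2558 to 2894 genes were higher and 3279 to 3516 lower, with 1 member higher and 3 to 4 lower.

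Same-numbered libraries did not deviate together (correlations 0.0138, -0.00389 and 0.0187), and 3 of 6 correlated best with their own number. With the replicate number as a block, 2912 genes were higher and 3525 lower, with 1 and 4 members and 16 and 31 related genes. The low counts of Fosb and Egr3 limit what could be detected for these genes.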
